A study of Homo sapiens with 12 samples.

Results

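Gene expression in HT29 cells after 24 h with 70 nM methotrexate was compared with that in untreated HT29 cells. HT29 is an established line from a human colon cancer, and the study describes it as sensitive to the drug. The comparison takes the 3 arrays titled MTX-24h and the 3 titled Control, which are 6 of the 12 arrays of the study. The other 6 are groups of 3 after 8 and 48 h with the same dose, used here to place the 24 h values in time. Cells of every group were seeded in plates and grown in F12 medium with fetal bovine serum. The controls are the 0 h point of the series. No untreated array at 24 h was used here, so the drug and the time in culture cannot be told apart. Each array was hybridised with biotin-labelled cRNA made from total RNA, on the Affymetrix human gene array HuGene 1.0 ST. The titles call the 3 replicates of a group biological, and whether they came from separate cultures is not stated further, so the p-values measure the spread between these arrays.

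Methotrexate is a folate analogue that lowers the pool of reduced folates in the cell. Without reduced folate a cell cannot make thymidylate, and purine synthesis is also held back, so DNA replication slows for lack of precursors. Cells entering S phase normally switch on the replication machinery through E2F transcription factors, and they make the bulk of their histone mRNA only while DNA is being copied. The type I interferon genes and the amino acid stress genes, which take up much of what follows, are separate programmes. The first is run by the ISGF3 complex on interferon-stimulated response elements, and the second by ATF4 on amino acid response elements.

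Values are log2 ratios to the median control array, so a gene at 0 equals the median control and values above 0 are higher than it. The level of a gene on the array is lost by that centring. Whether the defining markers of colon epithelium were expressed therefore could not be checked here, only whether they differed between groups. In bulk RNA, fewer cells that express a gene and less RNA of it per cell cannot be told apart. The spread between replicates was small, with a median SD per gene of 0.0644 in the controls and 0.066 at 24 h (n = 3 each) and a median standard error (SE) of the difference of 0.0659. The root mean square difference between replicates was 0.0997 to 0.138 in the controls and 0.0951 to 0.143 at 24 h.

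At 24 h 1597 genes were higher and 1473 lower than in the controls, out of 18377 genes tested (limma, Benjamini-Hochberg adjusted p under 0.05). These 3070 genes are 16.7% of those tested, with 8.69% higher and 8.02% lower. Most of these changes were small. Genes called higher had a median log2 fold change of 0.32, and genes called lower a median of -0.34. At least 2-fold changes were found for 33 genes that rose (0.18% of those tested) and 74 that fell (0.403%). For 6072 genes (33.0%) the 3 treated arrays lay beyond all 3 controls, above them for 17.8% and below them for 15.2%. The count of lower genes was 950 without control replicate 1, 937 without control replicate 2 and 935 without 24 h replicate 1. Quantile normalization of the arrays, which makes their distributions alike, called 722 genes higher and 859 lower.

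**Figure D1:**
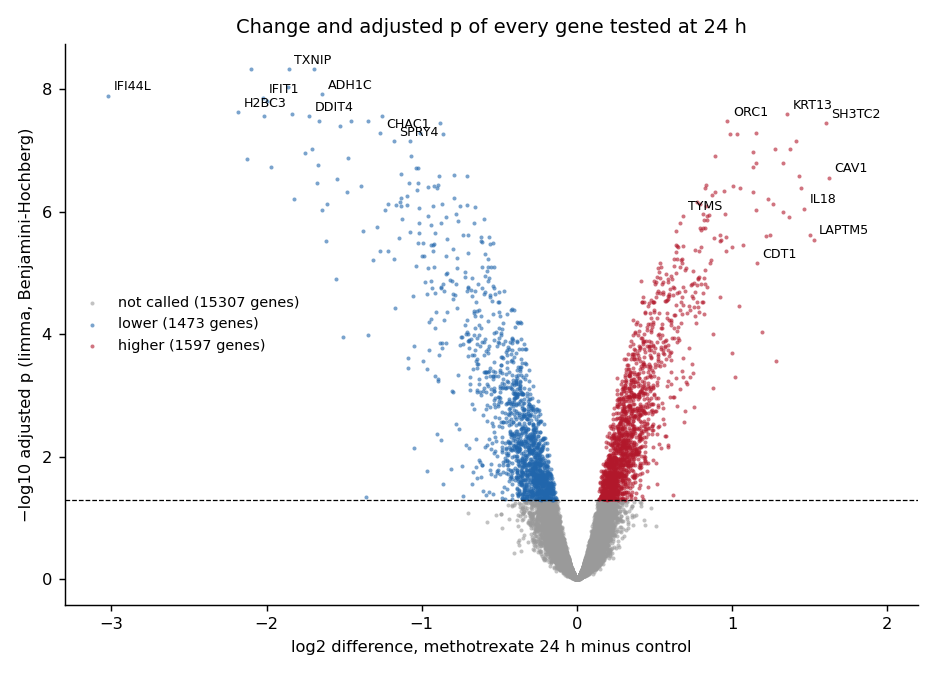
Log2 fold change at 24 h against control (x axis) and -log10 of the adjusted p (y axis, a log scale by construction) for the 18377 genes tested. The 1597 genes called higher and 1473 called lower are coloured, and the 15307 others are grey. The lower side reaches further, to IFI44L at -3.02, than the higher side, to CAV1 at 1.62.

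The 74 genes that fell at least 2-fold were mostly of a few kinds. Of them, 22 were histone genes whose mRNA is made with DNA replication, 15 were interferon-stimulated effectors and 4 were RNA sensors and other interferon pathway genes. A further 3 belonged to the integrated stress response, 2 to growth factor feedback, 4 to the H/ACA box and 1 to the C/D box small nucleolar RNAs, and 20 belonged to no list. Fewer of the 33 genes that rose at least 2-fold belonged to a list. Of these 33, 27 belonged to no list, 2 were caveola genes, and the replication, NF-kB, enterocyte and lysosome lists gave 1 each. The lists were chosen with earlier results of these data known, so membership in no list does not show how alike these genes are.

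CAV1, the coat protein of caveolae, showed the largest rise, with values of 0.00, -0.33 and 0.00 in the controls and 1.51, 1.62 and 1.42 at 24 h. The 3 treated arrays were close together and far above the controls, a 3.08-fold rise (log2 fold change 1.62, SE 0.10, adjusted p = 2.75e-07). The 14 rises next in size were SH3TC2, LAPTM5, VSNL1, IL18, SEMA7A, PADI1, ELF5, SRPX2, KRT13, KRT80, ACTBL2, EMP3, MCAM and DHRS9. SH3TC2, an endosomal adaptor, rose 3.04-fold, from 0.20, -0.04 and 0.00 to 1.71, 1.66 and 1.62. LAPTM5, a lysosomal membrane protein best known in blood cells, rose 2.88-fold, from 0.00, 0.26 and -0.12 to 1.56, 1.69 and 1.46. The groups did not overlap for either gene. IL18, a cytokine of the interleukin-1 family made by epithelium, read 0.02, 0.00 and -0.08 in the controls and 1.39, 1.52 and 1.41 at 24 h, 2.76-fold higher (SE 0.11, adjusted p = 8.89e-07). SEMA7A, a membrane-bound semaphorin, rose 2.72-fold and PADI1, which converts arginine to citrulline in keratins and other proteins, 2.7-fold. ELF5, an epithelial ETS factor, rose 2.59-fold, from 0.12, 0.00 and -0.02 to 1.38, 1.51 and 1.33. The call for ACTBL2 ended under quantile normalization.

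KRT13, a keratin of stratified epithelium, read 0.00, 0.00 and -0.14 in the controls and 1.30, 1.23 and 1.39 at 24 h, a 2.56-fold rise. KRT80 rose 2.51-fold, with all treated arrays at or above 1.23 and all controls at or below 0.14. MCAM, a cell adhesion molecule, rose 2.4-fold, and DHRS9, a retinol dehydrogenase, 2.37-fold. Genes outside the naming rule that were chosen after their values were seen included MSLN, the surface protein mesothelin (2.1-fold), SCEL, sciellin of the cornified envelope (2.32-fold), and SFN, 14-3-3 sigma of epithelia (1.73-fold). Their 24 h arrays all lay above the controls.

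**Figure D2:**
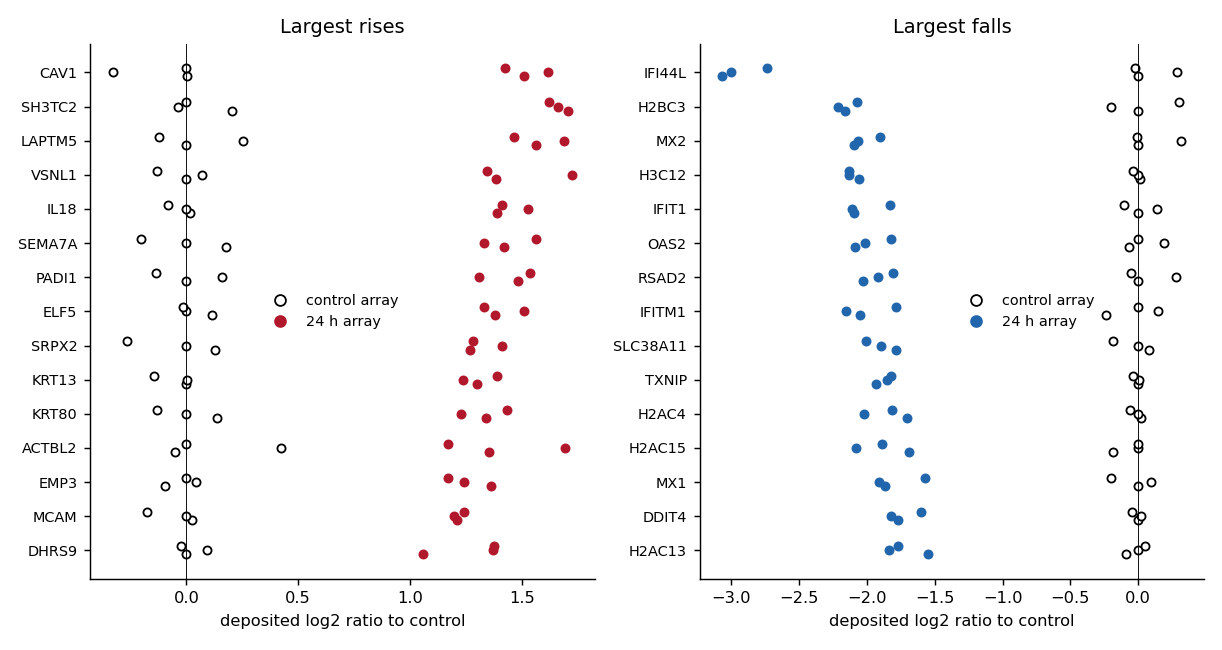
Log2 ratio to the control median (x axis) of the 15 largest rises and the 15 largest falls at 24 h, with 1 row per gene. Open points are the 3 control arrays and filled points the 3 arrays at 24 h. The genes were chosen among those whose groups did not overlap, so in every row the filled points lie to one side of the open ones. The filled points run from CAV1 at 1.42 to 1.62 down to IFI44L at -3.07 to -2.74.

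The deepest fall was that of IFI44L, an interferon-induced gene, which read 0.00, 0.28 and -0.03 in the controls and -3.07, -3.00 and -2.74 at 24 h. This is 8.11-fold lower (log2 fold change -3.02, SE 0.12, adjusted p = 1.27e-08), with no treated array near a control. MX2 and MX1 are dynamin-like GTPases that trap viral particles, IFIT1 binds viral RNA, OAS2 makes the oligoadenylate that activates RNase L, RSAD2 is viperin, and IFITM1 blocks viral entry at membranes. All 6 were among the 15 largest falls: MX2 fell 4.36-fold, IFIT1 4.06-fold, OAS2 4.05-fold, RSAD2 3.98-fold, IFITM1 3.92-fold and MX1 3.36-fold. IFIT1 read 0.00, 0.14 and -0.11 in the controls and -2.10, -2.11 and -1.83 at 24 h. MX2 read 0.00, 0.32 and -0.01, then -2.10, -2.06 and -1.90. Control replicate 2 was the highest control for IFI44L, MX2, IFIT1, OAS2 and IFITM1. The 15 largest falls, too, were taken only from genes whose groups did not overlap.

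The interferon-stimulated element has a fixed core, and the promoters of IFIT1 and IFI44L, shown for their place among the deepest falls, carry it close to the start of transcription. The sequences are the 250 bases before the RefSeq start of each gene on GRCh38.p14, written 5′ to 3′ along the strand of the gene. IFIT1 lies at chr10:89392373-89392622 and IFI44L at chr1:78620198-78620447, both on the plus strand. Capitals mark matches to GAAANNGAAA on either strand, 2 in each window. They start 116 and 103 bases before the start of IFIT1, and 164 and 73 bases before that of IFI44L.
IFIT1: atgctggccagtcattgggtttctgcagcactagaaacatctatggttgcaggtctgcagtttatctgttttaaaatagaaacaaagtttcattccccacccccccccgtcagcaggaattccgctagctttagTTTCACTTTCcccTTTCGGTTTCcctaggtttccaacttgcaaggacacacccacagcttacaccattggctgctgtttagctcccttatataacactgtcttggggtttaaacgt
IFI44L: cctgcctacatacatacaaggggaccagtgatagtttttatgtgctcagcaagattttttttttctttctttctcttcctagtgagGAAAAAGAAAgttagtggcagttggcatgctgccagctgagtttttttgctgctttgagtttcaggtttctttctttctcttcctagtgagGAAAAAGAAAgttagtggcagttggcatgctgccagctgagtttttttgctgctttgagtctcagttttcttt

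RefSeq promoter windows of 300 bases (250 before and 50 after the start) were held for 14210 of the 18377 genes tested. GAAANNGAAA was present on either strand in 20 of the 28 interferon-stimulated effectors with a window (71.4%) and in 10 of the 27 signalling genes and sensors (37.0%). Of all genes tested with a window 3.03% held it, and of all 35116 windows 3.57%. A match describes the letters in the window and no binding was measured.

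Interferon-stimulated effectors as a group were lower at 24 h. Of 36 measured, 32 fell, 0 rose, and the median log2 fold change was -0.93, beside a median of 0.02 over all genes tested, of which 8.02% were lower. Their median by array was -0.95, -0.96 and -0.90 at 24 h and 0.00, 0.12 and -0.02 in the controls. Of 30 antiviral proteins 27 fell, and of the 6 genes of the ISG15 system, a ubiquitin-like tag and its enzymes, 5 fell. ISG15 itself read -0.11, 0.00 and 0.08 in the controls and -0.58, -0.64 and -0.43 at 24 h, 1.46-fold lower. XAF1, which antagonises inhibitors of apoptosis, fell 3.06-fold and IFI27 2.03-fold. IFITM1 and IFITM3 resemble each other closely, so their single values are uncertain. ADAR, which edits double-stranded RNA, fell 1.25-fold. TRIM5, a capsid sensor, was not called, with a log2 fold change of 0.18 (SE 0.07, adjusted p = 0.0973).

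Upstream of these genes, 14 of 36 signalling genes and sensors fell and 3 rose, where 8.02% and 8.69% of all genes did. Among 16 sensors and amplifiers 11 fell and 1 rose, with a median of -0.70. RIGI, which senses 5′-triphosphate RNA, read 0.00, 0.18 and 0.00 in the controls and -1.70, -1.57 and -1.57 at 24 h, 3.19-fold lower. DDX60 fell 3.17-fold, IFIH1, the sensor MDA5 of long double-stranded RNA, 2.49-fold, and PARP9 2.02-fold. TLR3, the endosomal sensor of double-stranded RNA, fell 1.7-fold and EIF2AK2, the kinase PKR, 1.58-fold. The 24 h arrays were below every control in these 6 genes. MAVS, the mitochondrial adaptor that RIGI and IFIH1 signal through, was the sensor-side gene that rose, 1.17-fold (adjusted p = 0.00723), a call that ended under quantile normalization.

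Of the 5 transcription factors measured, IRF9, the DNA-binding part of ISGF3, fell 1.84-fold (0.00, 0.12 and 0.00 in the controls, then -0.92, -0.88 and -0.71) and IRF7 fell 1.36-fold. IRF3 rose 1.27-fold. The calls of IRF7 and IRF3 ended under quantile normalization. Among 9 receptors and kinases IFNGR1, a chain of the interferon gamma receptor, rose 1.33-fold. Of the 6 ligand genes measured 0 were called by limma, and 1 was lower at an unadjusted p under 0.05. In antigen presentation 2 of 14 genes rose and 3 fell, or 35.7% called beside 16.7% of all genes, and 0 rose under quantile normalization. TAP1, a chain of the peptide transporter, fell 1.45-fold and PSME2, an activator of the immunoproteasome, 1.29-fold.

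CXCL10, an interferon-induced ligand of CXCR3, read 0.00, 0.19 and -0.07 in the controls and -1.22, -1.26 and -1.12 at 24 h, 2.36-fold lower, and CXCL11 fell 1.69-fold. CCL5 fell 2.19-fold and the guanylate-binding protein GBP4 2.21-fold, although the GBP4 call ended under quantile normalization. TNFSF10, the death ligand TRAIL, fell 1.52-fold.

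Compared with 8 h, many interferon genes were higher at 24 h. Of the 36 effectors 18 were higher at 24 h than at 8 h and 1 was lower, against 9.99% of all genes higher in that comparison. From 24 to 48 h 22 rose and 0 fell, against 5.26% of all genes. MX2 stood at -3.21 at 8 h, -2.12 at 24 h and -1.41 at 48 h (log2 fold change against control), and both steps passed the test (adjusted p = 4.52e-05 and 0.00264). XAF1 went from -2.57 to -1.61 to -0.51 (adjusted p = 0.000236 and 0.00021). For IFI44L the step from 8 to 24 h was 0.32 (adjusted p = 0.0957), and that from 24 to 48 h was 0.95 (adjusted p = 0.000365). IRF9 rose from -1.67 at 8 h to -0.88 at 24 h and -0.47 at 48 h. MX2, XAF1, IFI44L and IRF9 were still below control at 48 h.

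Histone genes of the replication-dependent clusters, whose mRNA ends in a stem-loop and is made in S phase, fell almost without exception. Of 49 measured, 47 fell and 0 rose, with a median log2 fold change of -0.96, where 8.02% of all genes fell. The 3 treated arrays lay below all controls in 48 of them, beside 15.2% of all genes. By array the median was -0.92, -1.05 and -0.99 at 24 h and 0.00 in each control. All 12 H2A, 14 H2B and 8 H3 genes measured fell, as did 4 of 5 linker H1 and 9 of 10 H4 genes. Not called were H1-1 (log2 fold change -0.04, SE 0.05) and H4C6 (-0.17, SE 0.07). Genes of one histone class are nearly identical in sequence, so the value of a single member may include its neighbours.

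H2BC3 read 0.00, -0.20 and 0.30 in the controls and -2.16, -2.21 and -2.07 at 24 h, 4.54-fold lower (SE 0.10, adjusted p = 2.34e-08). H3C12 read 0.02, 0.00 and -0.04 in the controls and -2.06, -2.13 and -2.13 at 24 h, 4.29-fold lower. H2AC4 fell 3.57-fold, H2AC15 3.54-fold, H2AC13 3.27-fold, the linker histone H1-5 3.06-fold and H4C2 2.78-fold. Controls and treated arrays were far apart in these 7 genes. The promoters of H2BC3 (chr6:26043714-26043963) and H2AC4 (chr6:26033619-26033868), both on the minus strand, are shown because each holds the octamer ATTTGCAT that marks H2B promoters. The octamer, in capitals, starts 120 and 118 bases before the start.
H2BC3: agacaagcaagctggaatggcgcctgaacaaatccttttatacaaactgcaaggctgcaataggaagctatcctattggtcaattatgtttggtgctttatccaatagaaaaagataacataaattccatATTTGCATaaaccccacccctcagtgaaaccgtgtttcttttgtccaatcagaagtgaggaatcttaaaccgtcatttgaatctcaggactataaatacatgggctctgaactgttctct
H2AC4: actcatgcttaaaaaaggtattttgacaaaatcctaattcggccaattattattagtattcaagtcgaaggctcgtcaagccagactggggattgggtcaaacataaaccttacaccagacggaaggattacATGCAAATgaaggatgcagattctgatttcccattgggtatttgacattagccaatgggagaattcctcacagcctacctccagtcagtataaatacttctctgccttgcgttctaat

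The octamer was found on either strand in 12 of the 14 H2B windows (85.7%) and in 21 of the 44 windows of all replication-dependent histones (47.7%), beside 1.61% of all genes tested and 1.77% of all windows. TTTGGCGC or TTTCCCGC, forms of the E2F site, was in 0 of those 44 histone windows.

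Most histone genes outside these clusters are made at all times from polyadenylated mRNA. Of 8 genes measured outside the clusters 3 fell, where 8.02% of all genes did: H1-10 by 0.67, H2AJ by 0.38 and H3-3B by 0.19 on the log2 scale. The last 2 calls ended under quantile normalization among other settings. H2AX was at -0.01 (SE 0.06) and H2AZ1 at -0.06 (SE 0.05). Of 14 factors that process histone mRNA or carry histones to DNA, 5 rose and 1 fell, where 8.69% and 8.02% of all genes did. SLBP, which binds the stem-loop of histone mRNA, read 0.10, -0.06 and 0.00 in the controls and 0.43, 0.36 and 0.40 at 24 h, a 1.31-fold rise. The chromatin assembly subunits CHAF1B and CHAF1A rose 1.52-fold and 1.31-fold, and the chaperone ASF1B 1.27-fold. HIRA, which deposits the variant H3.3, fell 1.19-fold, and NASP rose 1.2-fold. Both calls ended under quantile normalization, and that of HIRA, the single fall, also without control replicate 1 and without each of the 24 h replicates.

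The histone fall deepened between 8 and 24 h. Against 8 h, 45 of the 49 genes were lower at 24 h and 0 higher, with a median of -0.64, where 9.4% of all genes were lower. H3C12 went from -0.59 at 8 h to -2.10 at 24 h (adjusted p = 1.78e-07) and H1-5 from -0.12 to -1.61 (adjusted p = 2.8e-06). From 24 to 48 h 9 rose and 2 fell, where 5.26% and 4.86% of all genes did. H3C12 was at -2.08 at 48 h.

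While histone mRNA fell, mRNA of the replication machinery was higher. Of 59 genes of origin licensing and the replication fork 47 rose and 1 fell, with a median of 0.41, where 8.69% of all genes rose. The median by array was 0.40, 0.42 and 0.43 at 24 h and 0.07, 0.00 and -0.03 in the controls. CDT1, which loads the MCM helicase at origins, rose most, from 0.12, 0.00 and -0.15 to 1.25, 1.03 and 1.18, or 2.24-fold (SE 0.11, adjusted p = 6.87e-06). ORC1, the largest subunit of the origin recognition complex, read 0.02, 0.00 and -0.06 in the controls and 0.95, 0.96 and 0.95 at 24 h, 1.96-fold higher. The 3 treated arrays were nearly equal for ORC1, and the groups were far apart for both genes. CDC6, the partner of CDT1 in loading, rose 1.66-fold and the helicase subunit MCM4 1.46-fold.

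Rises were found in each role at the fork. Of 12 genes of firing and the active helicase 11 rose, among them CDC45 (1.56-fold), MCM10 (1.59-fold) and GINS3 (1.54-fold). Of 10 polymerase subunits 7 rose, among them POLA2 of the primase complex (1.79-fold) and the catalytic subunits POLD1 (1.52-fold) and POLE (1.41-fold). Of 13 genes of the sliding clamp, its loader and the ligase 11 rose. PCNA, the clamp, read 0.01, -0.04 and 0.00 in the controls and 0.41, 0.47 and 0.48 at 24 h, 1.38-fold higher, while RFC5 of the loader rose 1.51-fold and LIG1 1.49-fold. All 9 fork protection genes rose, with TIMELESS at 1.78-fold and CLSPN at 1.63-fold, the latter not called under quantile normalization.

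Licensing was the mixed role, with 9 of 15 genes higher and 1 lower. ORC5 read 0.00, 0.03 and -0.03 in the controls and -0.44, -0.37 and -0.40 at 24 h, 1.32-fold lower. MCM6 (log2 fold change -0.03, SE 0.07) and the polymerase subunit POLA1 (0.005, SE 0.10) were not called, and their treated arrays overlapped the controls. At 8 h MCM6 stood at 0.45 and POLA1 at 0.51, and the step down to 24 h passed the test for both (adjusted p = 0.000489 and 0.00257). Over the 59 genes, 18 were lower and 1 higher at 24 h than at 8 h, where 9.4% of all genes were lower. From 24 to 48 h 0 of them rose and 9 fell, where 4.86% of all genes fell.

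The promoters of CDT1 (chr16:88803539-88803788) and of TYMS (chr18:657403-657652), both on the plus strand, are shown as examples of genes that rose with a form of the E2F site near the start. Capitals mark TTTCCCGC, which is on the reverse strand in both and so reads GCGGGAAA. It starts 35 bases before the start of CDT1 and 39 before that of TYMS.
CDT1: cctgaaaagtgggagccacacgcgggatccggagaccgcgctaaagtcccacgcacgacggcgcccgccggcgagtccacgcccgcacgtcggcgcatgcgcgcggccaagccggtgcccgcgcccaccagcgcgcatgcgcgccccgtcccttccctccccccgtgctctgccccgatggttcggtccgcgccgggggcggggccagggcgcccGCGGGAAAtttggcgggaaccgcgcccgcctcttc
TYMS: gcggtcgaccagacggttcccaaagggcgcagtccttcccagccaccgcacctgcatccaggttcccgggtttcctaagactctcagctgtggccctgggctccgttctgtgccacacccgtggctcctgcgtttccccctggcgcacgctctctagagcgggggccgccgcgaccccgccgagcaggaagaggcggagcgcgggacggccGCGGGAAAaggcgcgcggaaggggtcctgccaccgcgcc

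TTTGGCGC or TTTCCCGC was present on either strand in 17 of the 49 licensing and fork windows (34.7%), beside 3.1% of all genes tested and 2.27% of all windows.

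**Figure D3:**
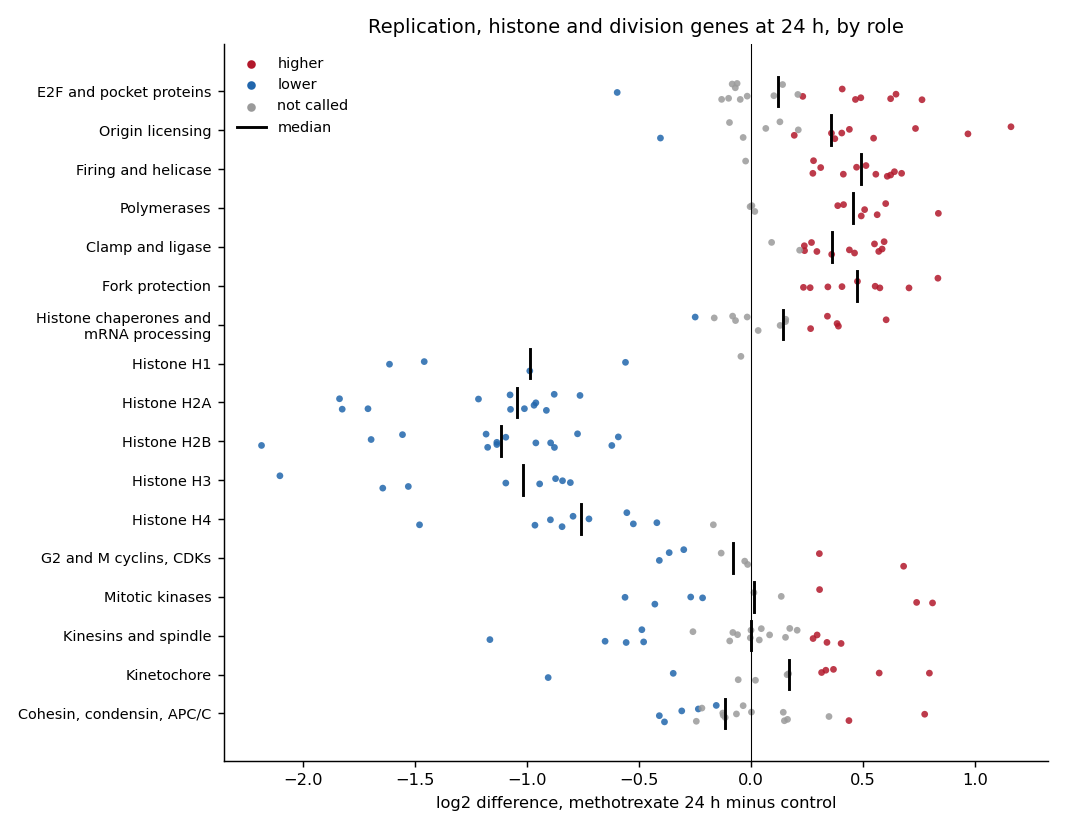
Log2 fold change at 24 h against control (x axis) of single genes, in rows for 17 roles in histones, replication and the cell cycle. Points are genes coloured by call and the bar in each row is the median. The 5 histone rows lie left of 0, with medians from -1.11 to -0.76, the replication rows lie right of 0, with medians from 0.36 to 0.49, and the mitotic rows spread to both sides.

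Among E2F factors and their partners 7 of 18 rose and 1 fell, where 8.69% and 8.02% of all genes did. E2F1 read 0.00, -0.04 and 0.00 in the controls and 0.68, 0.52 and 0.70 at 24 h (1.57-fold higher), E2F2 rose 1.54-fold and the repressor E2F8 1.7-fold. E2F5, which acts with pocket proteins to repress, fell 1.51-fold. MYBL2 rose 1.38-fold and FOXM1, which drives G2 genes, 1.41-fold. RBL1, the pocket protein p107, rose 1.33-fold, a call that ended without control replicate 3 or without 24 h replicate 2.

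Of 10 cyclin and kinase genes of G1 and S 6 rose and 0 fell, where 8.69% of all genes rose and 8.02% fell. CDK2 read 0.00 in each control and 0.37, 0.42 and 0.48 at 24 h, 1.34-fold higher, and its activating phosphatase CDC25A rose 1.52-fold. CCNE1 and CCNE2, its cyclin partners, rose 1.2-fold and 1.19-fold. Both cyclin E calls were small and ended under quantile normalization and without control replicate 2. That of CCNE1 also ended with centring and without control replicate 3, 8 h replicate 2, or 24 h replicate 1 or 3. Both cyclins were lower than at 8 h, when they stood at 0.72 and 0.97 (adjusted p = 0.00105 and 6.23e-06). Of 8 genes of G2 and M 2 rose and 3 fell. CCNB1, the cyclin of mitotic entry, read -0.02, 0.05 and 0.00 in the controls and -0.39, -0.36 and -0.45 at 24 h, 1.33-fold lower, CCNB2 fell 1.23-fold, and PKMYT1, which holds CDK1 inactive, rose 1.6-fold. The higher count over all 25 cyclin, CDK and inhibitor genes, 8, was 4 or 5 without any 1 control or without 24 h replicate 1 or 3, and 3 under quantile normalization. CDKN1A, the inhibitor p21, was at 0.06 (SE 0.06, adjusted p = 0.661), with overlapping groups.

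Mitotic genes changed in both directions. Of 60 measured 14 rose and 16 fell, where 8.69% and 8.02% of all genes did. Their median was 0.00, and its sign changed between settings. KIF20A, a kinesin of cytokinesis, fell most, from 0.17, 0.00 and -0.01 to -1.19, -0.99 and -1.16, or 2.24-fold (adjusted p = 7.58e-07). The kinesin CENPE fell 1.87-fold, AURKA 1.48-fold, PLK1 1.35-fold, the APC/C activator CDC20 1.31-fold and the securin PTTG1 1.33-fold. HASPIN, a histone H3 kinase, rose 1.75-fold, SPC24 of the kinetochore 1.74-fold, CDCA5, the sororin that holds sister chromatids, 1.71-fold and PLK4, the kinase of centriole duplication, 1.67-fold. Groups did not overlap for these 10 genes. KIF20A had stood at -0.35 at 8 h and returned to -0.30 at 48 h, and both steps passed the test (adjusted p = 2.02e-05 and 3.61e-05). Of the 60 genes 13 rose and 2 fell from 24 to 48 h, where 5.26% and 4.86% of all genes did. MKI67, a proliferation marker, was at 0.00 (SE 0.11) at 24 h. Under quantile normalization 9 mitotic genes rose.

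DNA repair genes that changed were nearly all higher. Of 49 measured 23 rose and 1 fell, where 8.69% of all genes rose and 8.02% fell. Their median was 0.21, and 13 rose under quantile normalization. Of 15 homologous recombination genes 8 rose, among them BRCA1, which read 0.11, 0.00 and -0.12 in the controls and 0.65, 0.70 and 0.67 at 24 h, 1.6-fold higher. FANCE of the Fanconi core complex rose 1.69-fold, RAD18, the ligase that marks PCNA for translesion synthesis, 1.69-fold, MDC1, which gathers repair factors at breaks, 1.68-fold, and the exonuclease EXO1 1.55-fold. These treated arrays all lay above the controls. BRIP1 rose 1.32-fold, a call that ended without control replicate 3 and under quantile normalization.

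In folate and one-carbon metabolism 3 of 24 genes rose and 4 fell, or 29.2% called beside 16.7% of all genes, with a median of 0.00 whose sign changed between settings. The higher count was 1 without control replicate 2 or 3 or 24 h replicate 2 or 3, and the lower count was 2 without control replicate 1 or 2, 8 h replicate 2, 24 h replicate 3 or 48 h replicate 2. TYMS, thymidylate synthase, read 0.12, -0.01 and 0.00 in the controls and 0.69, 0.74 and 0.72 at 24 h, 1.6-fold higher (SE 0.05, adjusted p = 1.15e-06), and differed from its 8 h value by -0.02 (adjusted p = 0.86). The mitochondrial enzymes MTHFD1L and MTHFD2L fell 1.28-fold and 1.25-fold. MTHFD1 rose 1.18-fold, a call lost in 5 of the alternatives. Of the 7 genes of folate uptake and retention 0 were called by limma, and 1 was higher and 1 lower at an unadjusted p under 0.05. SLC19A1, the reduced folate carrier through which methotrexate enters, was at -0.11 (SE 0.06, adjusted p = 0.289). FPGS, which adds the glutamates that keep it in the cell, was at 0.10 (SE 0.07) and GGH, which removes them, at 0.17 (SE 0.07). Of 8 efflux carriers ABCC4 fell 1.5-fold, and ABCC5 rose 1.18-fold with a call that ended in 12 alternatives.

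Nucleotide supply showed rises in salvage and deoxynucleotide enzymes. Among 21 genes for pyrimidines and deoxynucleotides, 8 rose and 3 fell, where 8.69% and 8.02% of all genes did. The lower count was 1 without control replicate 1 or 24 h replicate 1. TK1, which salvages thymidine, read 0.00, 0.00 and 0.01 in the controls and 0.72, 0.51 and 0.75 at 24 h, 1.58-fold higher. The ribonucleotide reductase subunits RRM2 and RRM1 rose 1.3-fold and 1.23-fold, and CTPS1, which makes CTP, 1.37-fold. CDA, cytidine deaminase, rose 1.76-fold, with 0.79, 0.84 and 0.80 against 0.04, -0.06 and 0.00. SAMHD1, which degrades deoxynucleotides and is also interferon-induced, fell 1.62-fold. Of 19 purine genes 6 rose and 1 fell, beside the same shares of all genes. IMPDH2, the rate-limiting enzyme of guanine nucleotide synthesis, rose 1.55-fold and HPRT1, which salvages hypoxanthine and guanine, 1.29-fold, while the nucleotidase NT5C2 fell 1.34-fold. Between 8 and 24 h 12 purine genes became lower and 3 higher, where 9.4% and 9.99% of all genes did. PFAS, an enzyme of de novo synthesis, went from 0.60 to 0.15 (adjusted p = 0.000593), and in the pyrimidine list CAD went from 0.57 to 0.08 (adjusted p = 0.000449) and DHODH from 0.77 to -0.03 (adjusted p = 6.23e-06).

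Of 27 p53 target genes 5 rose and 4 fell, or 33.3% called beside 16.7% of all genes, and the sign of their median changed between settings. The higher count was 3 without control replicate 1 or 2 or 24 h replicate 3, and 1 under quantile normalization. The lower count was 1 without control replicate 1 or 2 or 24 h replicate 1, 2 without 24 h replicate 3 and 7 without 48 h replicate 3. DDB2, a damage sensor of nucleotide excision repair, rose 1.58-fold, and CCNG2 fell 1.32-fold. Of 25 apoptosis regulators 3 rose and 1 fell, a share near that of all genes. Under quantile normalization both counts were 0, and with array weights they were 8 and 5. The higher count was 5 without 48 h replicate 3. The lower count was 0 without control replicate 2 or 3, 8 h replicate 3, 24 h replicate 1 or 3 or 48 h replicate 2, and 2 without 24 h replicate 2. BCL2L1, the survival protein BCL-XL, rose 1.24-fold with a call that ended under quantile normalization.

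Genes of the integrated stress response fell. Of 37 measured 22 fell and 0 rose, with a median of -0.26, where 8.02% of all genes fell. DDIT4, an inhibitor of mTORC1, read 0.00, 0.02 and -0.04 in the controls and -1.77, -1.82 and -1.60 at 24 h, 3.3-fold lower (SE 0.08, adjusted p = 2.72e-08). CHAC1, which degrades glutathione, read 0.00, 0.06 and -0.04 in the controls and -1.25, -1.33 and -1.20 at 24 h, 2.4-fold lower. CTH of cysteine synthesis fell 2.04-fold, SESN2, a leucine sensor upstream of mTORC1, 1.71-fold, TRIB3 1.63-fold, DDIT3, the factor CHOP, 1.55-fold, PSAT1 of serine synthesis 1.54-fold and ASNS, asparagine synthetase, 1.38-fold. These 8 genes had every treated array below every control, which for DDIT4 was set by its choice among the largest falls. Of 9 amino acid transporters 7 fell, among them SLC7A5 (1.42-fold). The mRNA of ATF4, the central factor of the programme, was at 0.21 (SE 0.07, adjusted p = 0.0578). The promoter of CHAC1 (chr15:40953221-40953470, plus strand) is shown for its single match to the amino acid response core TGATGNAA. The match, in capitals, reads TTGCATCA on this strand and starts 209 bases before the start.
CHAC1: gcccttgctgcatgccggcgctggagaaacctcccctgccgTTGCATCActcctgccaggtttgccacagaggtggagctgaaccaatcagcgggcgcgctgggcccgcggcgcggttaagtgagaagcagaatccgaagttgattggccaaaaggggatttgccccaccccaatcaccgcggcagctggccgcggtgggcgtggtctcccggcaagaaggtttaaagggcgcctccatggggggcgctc

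TGATGNAA was in 6 of the 30 stress response windows (20%), beside 2.54% of all genes tested and 3.62% of all windows.

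Against 8 h 19 of the 37 stress response genes were higher at 24 h and 2 lower, and from 24 to 48 h 1 rose and 21 fell, where 9.99% and 4.86% of all genes did so. Among the 9 amino acid transporters 2 were higher than at 8 h. ASNS stood at -1.19 at 8 h, -0.47 at 24 h and -1.44 at 48 h (adjusted p = 4.88e-06 and 1.62e-06 for the 2 steps). CHAC1 went from -1.98 to -1.27 to -2.25 (adjusted p = 7.85e-06 and 2.27e-06), and NUPR1, a stress-induced chromatin protein, from -1.94 to -0.56 to -0.90 (adjusted p = 7.52e-07 and 0.0213). The folate enzyme MTHFD2, also an ATF4 target, was at -0.53, -0.01 and -0.55. Of 19 cytosolic tRNA synthetases 10 fell at 24 h against control and 0 rose, where 8.02% and 8.69% of all genes did. WARS1 and MARS1 were lower by 1.31-fold and 1.28-fold. From 24 to 48 h 15 of the 19 fell, where 4.86% of all genes did. The count of synthetases lower at 24 h was 5 without control replicate 1, 6 without control replicate 2, 4 without 24 h replicate 1 and 6 under quantile normalization. TXNIP, an arrestin-like brake on glucose uptake, read 0.00, 0.01 and -0.04 in the controls and -1.93, -1.85 and -1.82 at 24 h, 3.63-fold lower, and its relative ARRDC4 fell 2.41-fold.

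Of 40 feedback genes of growth factor signalling 15 were lower and 5 higher, where 8.02% and 8.69% of all genes were. SPRY4, which restrains receptor tyrosine kinase signalling, read 0.00, 0.10 and -0.04 in the controls and -1.29, -1.05 and -1.14 at 24 h, 2.26-fold lower, and SPRY2 fell 1.97-fold. DUSP6, the phosphatase of ERK, fell 1.64-fold, the immediate early factors EGR1 and FOS 2.11-fold and 1.73-fold, and the EGF family ligand HBEGF 1.94-fold. Treated arrays were below all controls in these 6 genes. DUSP1, a phosphatase of stress kinases, rose 1.38-fold and DUSP10 1.61-fold. At 8 h these last 2 had stood at -0.29 and -0.82, and the change to 24 h passed the test (adjusted p = 4.49e-06 and 6.33e-06). MYC fell 1.34-fold, from 0.00, 0.14 and -0.02 to -0.35, -0.43 and -0.35, after 0.07 at 8 h (adjusted p = 7.32e-05 for the step).

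Of 26 targets of NRF2, the factor of the antioxidant response, 13 were higher and 2 lower, where 8.69% and 8.02% of all genes were. The detoxifying dehydrogenase ALDH3A1 read 0.11, 0.00 and -0.01 in the controls and 1.06, 0.88 and 1.04 at 24 h, 1.95-fold higher. AKR1C2 rose 1.76-fold and GCLM, a subunit of the enzyme that starts glutathione synthesis, 1.57-fold. SLC7A11, the cystine importer, which ATF4 drives too, fell 1.56-fold. AKR1C genes are close in sequence and their single values are uncertain. From 24 to 48 h 16 of the 26 fell and 0 rose, where 4.86% of all genes fell. ALDH3A1 dropped by 1.09 to -0.13 (adjusted p = 7.85e-06) and AKR1B10, at 1.53 at 8 h, was at 0.18 at 24 h and -0.97 at 48 h (adjusted p = 9.14e-07 and 7.4e-06).

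Cytokine and NF-kB genes were higher in 12 of 32 and lower in 5, where 8.69% and 8.02% of all genes were. Under quantile normalization 5 were higher. Apart from IL18, the chemokine CXCL8 rose 1.63-fold, although its call ended under quantile normalization. NFKB2 read 0.12, 0.00 and -0.20 in the controls and 0.52 on all 3 arrays at 24 h, 1.46-fold higher, and TNFAIP3, an inhibitor that NF-kB induces, rose 1.45-fold. Later, 13 of the 32 rose and 0 fell from 24 to 48 h, where 5.26% of all genes rose. TNFAIP3 went from 0.54 to 1.36 (adjusted p = 2.19e-05), the complement gene C3 from 0.63 to 2.12 (adjusted p = 2.72e-07) and IL32 from 0.35 to 1.99 (adjusted p = 1.07e-07).

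Caveola genes rose in 5 of 8, where 8.69% of all genes rose. Beside CAV1, CAVIN1, which coats caveolae with it, read 0.11, 0.00 and -0.02 in the controls and 1.04, 1.08 and 1.05 at 24 h, 2.04-fold higher, and EHD2, which pins them to the membrane, rose 1.42-fold. The count was 3 without control replicate 2 and under quantile normalization. CAV1 rose on to 2.30 at 48 h (adjusted p = 0.00102), while CAVIN1 was lower at 48 than at 24 h, at 0.73 (adjusted p = 0.00294). Matrix and mesenchymal genes rose in 9 of 27 and fell in 0, where 8.69% and 8.02% of all genes did. Of these 27, 5 rose without control replicate 3 and 4 under quantile normalization. Tenascin, TNC, rose 1.72-fold, fibronectin, FN1, 1.54-fold, and the metalloproteinase inhibitor TIMP2 1.34-fold. Outside that list, PLAU, urokinase, rose 1.94-fold. The receptor kinase AXL, also outside it, rose 1.93-fold, from -0.14, 0.00 and 0.07 to 0.94, 0.92 and 0.92. Genes of epithelial identity and junctions rose in 7 of 24 and fell in 1, beside the same shares of all genes. Under quantile normalization 3 of them rose and 0 fell. The single fall also ended without control replicate 1 or 2 or any 1 of the 24 h replicates.

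**Figure D4:**
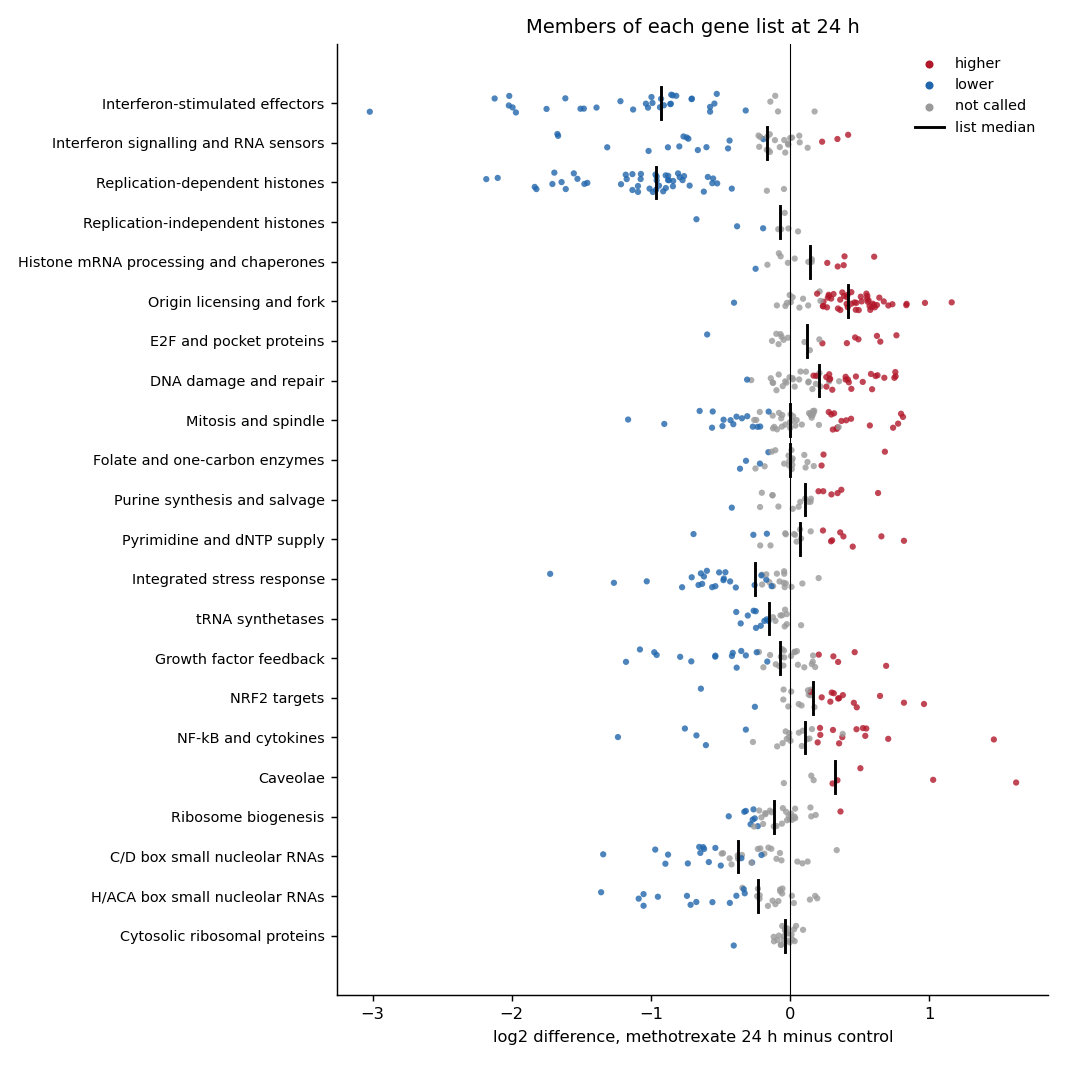
Log2 fold change at 24 h against control (x axis) of the measured members of 22 gene lists, a point per gene coloured by call, with a bar at each list's median. Replication-dependent histones and interferon-stimulated effectors lie furthest left, with medians of -0.96 and -0.93, and the licensing and fork genes furthest right among the cell cycle lists, with a median of 0.41.

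Colon differentiation genes changed in both directions. KRT20, a keratin of differentiated colonocytes, read 0.06, -0.04 and 0.00 in the controls and 0.48, 0.56 and 0.56 at 24 h, 1.44-fold higher, and KRT19 rose 1.33-fold. The carcinoembryonic adhesion proteins CEACAM6 and CEACAM5 rose 2.23-fold and 1.73-fold, the former call ending under quantile normalization, and carbonic anhydrase CA2 rose 1.39-fold. SLC5A1, the brush border glucose transporter, fell 1.63-fold, the chloride channel CFTR 2.92-fold and the bile acid hormone FGF19 1.9-fold. Of 28 brush border genes 3 rose and 1 fell (14.3% called, near the 16.7% of all genes). Of 28 goblet cell genes 3 rose and 4 fell (25%), and the lower count was 2 without 24 h replicate 1 or 3. MUC2, the main secreted mucin, was 1.13-fold higher, a call lost in 6 alternatives. CREB3L1 fell 2.44-fold, with -1.34, -1.29 and -1.18 against 0.13, 0.00 and -0.08. The secretory master gene SPDEF rose 1.36-fold and the mucin folding protein AGR2 fell 1.25-fold. Among 26 stem cell and Wnt targets (38.5% called) 4 rose, AXIN2 (1.37-fold) and DKK1 (1.39-fold) with them, and 6 fell, ID2 (1.71-fold) and EPHB3 (1.53-fold) with them. The higher count was 2 without control replicate 2 or 24 h replicate 1.

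Ribosome biogenesis factors showed a turn in mRNA between 8 and 24 h. At 8 h 28 of 33 ribosome biogenesis factors had been higher than control, with a median of 0.44. Of all genes 24.2% were called at 8 h in either direction. At 24 h 1 factor was higher and 8 were lower, or 27.3% called beside 16.7% of all genes. The median of the factors was then -0.12. The direct comparison with 8 h found 29 lower and 1 higher, where 9.4% and 9.99% of all genes were. WDR12 went from 0.42 to -0.44 (adjusted p = 6.26e-06) and NAT10 from 0.44 to -0.32 (adjusted p = 2.8e-06). UTP20 stood at 0.75 at 8 h and at -0.26 at 24 h (adjusted p = 3.31e-05 for the step), and its 24 h value did not pass the test against control (adjusted p = 0.134). The 24 h count of lower factors was 4 without control replicate 1 or 24 h replicate 1 and under quantile normalization, 5 without control replicate 2, and 17 with array weights. Of 25 cytosolic ribosomal protein genes 0 rose and 1, RPL13, fell (1.32-fold), or 4.0% called beside 16.7% of all genes.

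Small nucleolar RNAs guide the modification of ribosomal RNA, and most lie in introns of other genes, so a probe set may also read the host transcript. Of 36 C/D box RNAs 15 fell and of 31 H/ACA box RNAs 13, with 0 higher in both, where 8.02% of all genes fell. The lower C/D count was 9 without control replicate 1, 7 without control replicate 2, 6 without 24 h replicate 1, 6 without 24 h replicate 3, 8 under quantile normalization and 25 with array weights. The lower H/ACA count was 8 without control replicate 2, without 24 h replicate 3 and under quantile normalization. The 24 h arrays differed among themselves, with C/D medians of -0.30, -0.17 and -0.49 and H/ACA medians of -0.22, -0.16 and -0.29. SNORD14E read 0.00, 0.10 and -0.09 in the controls and -1.41, -1.13 and -1.48 at 24 h, 2.54-fold lower. SNORA24 read 0.00, 0.09 and 0.00, then -1.12, -0.60 and -1.46, 2.13-fold lower. SNORA22 was the least even, at -1.68, -0.12 and -2.42 against -0.28, 0.14 and 0.00, its groups overlapped, and its call ended in 12 of the 20 settings. Replicate 2 was the highest of the 3 treated arrays in these 3 RNAs. Of all 175 small nucleolar RNA genes on the array 35 fell (20%) and 0 rose. Against 8 h 29 of the 36 C/D RNAs were lower, where 9.4% of all genes were.

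Lipid synthesis genes that changed were mostly lower. Of 11 fatty acid synthesis genes 4 fell and 0 rose, where 8.02% and 8.69% of all genes did. SCD, which makes monounsaturated fatty acids, read 0.04, -0.08 and 0.00 in the controls and -1.01, -0.83 and -0.89 at 24 h, 1.87-fold lower, and its activator SREBF1 fell 1.37-fold. Of 18 cholesterol synthesis genes 1 rose and 4 fell (27.8% called beside 16.7% of all genes). INSIG1, which retains SREBP in the endoplasmic reticulum, fell 1.34-fold. The lower count was 2 without any 1 control or without 24 h replicate 1 or 3, and the higher count 0 without control replicate 3 or 24 h replicate 1. From 24 to 48 h 7 of the 11 and 6 of the 18 rose and 0 fell, where 5.26% of all genes rose. Of 14 genes of the unfolded protein response 3 fell and 0 rose (21.4% called beside 16.7% of all genes). DNAJB9 fell 1.66-fold, HERPUD1 1.33-fold and XBP1 1.3-fold. Of 32 glycolysis and hypoxia genes 7 rose and 3 fell (31.2% called), and 4 rose under quantile normalization. The hypoxia-responsive growth factor VEGFA fell 1.48-fold, while the glycolytic enzyme ENO2 rose 1.45-fold.

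Of 14 fibroblast markers 2 rose (ACTA2 and TAGLN, by 0.24 and 0.20 on the log2 scale), or 14.3% called beside 16.7% of all genes. Of 12 leukocyte markers 0 were called by limma and 0 had an unadjusted p under 0.05, and of 9 endothelial markers ESAM rose, 1.41-fold. The ACTA2 call ended under quantile normalization, and the TAGLN call in 12 of the 20 settings. Of 12 colon epithelial markers KRT19, KRT20 and CEACAM5 rose and LGALS4 fell 1.22-fold, the last not called under quantile normalization. Since levels are lost, whether any of these markers is at background is unknown.

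**Figure D5:**
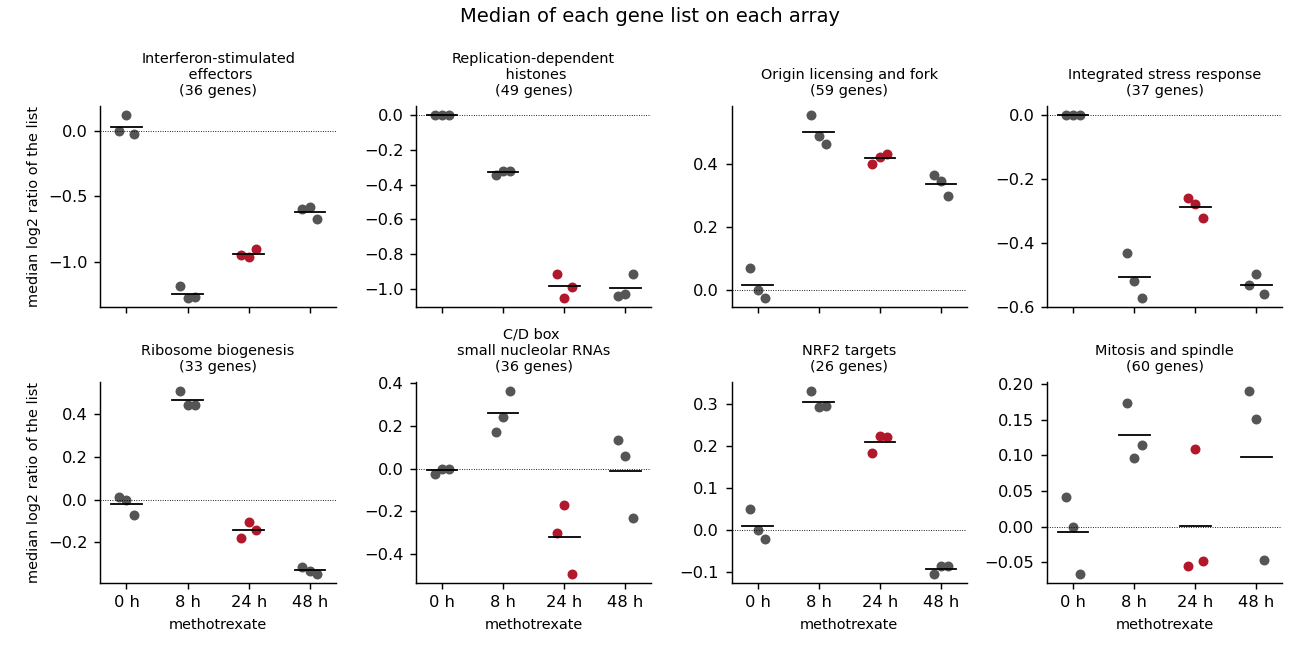
Median log2 ratio to the control median (y axis) over the members of 8 gene lists on each array, at 0, 8, 24 and 48 h with methotrexate (x axis). Points are arrays and the short bar at each time is the mean of 3. Histones go from between -0.34 and -0.32 at 8 h to between -1.05 and -0.92 at 24 h, interferon-stimulated effectors from between -1.27 and -1.18 to between -0.96 and -0.90, and ribosome biogenesis factors cross from above to below 0 between 8 and 24 h.

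Against 8 h as a whole, 1836 genes were higher (9.99%) and 1728 lower (9.4%) at 24 h, together 19.4% of those tested. From 24 to 48 h 966 rose (5.26%) and 894 fell (4.86%), together 10.1%. These later counts were 567 and 537 without 24 h replicate 1 and 603 and 500 without 24 h replicate 3. The 15 largest rises and the 15 largest falls were picked by their 24 h values. Those values enter both steps, so the choice itself favours 24 h values more extreme than those at 8 and 48 h. Among the 15 largest rises at 24 h, 14 were also higher than at 8 h, and from 24 to 48 h 6 rose and 2 fell. ELF5 was at 0.10 at 8 h, 1.37 at 24 h and 1.69 at 48 h (adjusted p = 5.53e-07 and 0.0169). VSNL1 was at 1.49 at 8 h and 1.38 at 48 h, and neither step passed the test (adjusted p = 0.966 and 0.685). Among the 15 largest falls, 5 were higher and 6 lower at 24 than at 8 h, and from 24 to 48 h 8 rose and 1 fell. The one that fell was DDIT4, from -1.72 to -2.21 (adjusted p = 0.00191).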

How the data were processed

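Total RNA of HT29 cells was measured on 12 arrays, 3 per group, and no array was left out. The authors deposited a log2 value for each probe set on each array. RMA (background correction, normalization and probe summary) and hg19 are named, without versions, in the submitters' processing notes. The control median was exactly 0 in all 28869 deposited probe sets, so the values are log2 ratios to it. Neither that step nor the logarithm's base is given in the sources used here. Base 2 is that of RMA. Probe sets with 1 gene (19310) were averaged per gene, giving 18377 genes, of which 685 had several probe sets. Probe sets naming several genes (1752) or none (7807) were tested apart.

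In R 4.3.3, limma 3.58.1 fitted group means to all 12 arrays (lmFit, contrasts.fit and eBayes, with 8 residual and 4.71 prior degrees of freedom). Tests were two-sided, and p-values were adjusted by the Benjamini-Hochberg method over the 18377 genes. Adjusted p-values throughout come from limma. Errors are limma's moderated SE, and the number of arrays limits the precision. The fit was tested on simulated data. Promoter windows came from RefSeq on GRCh38.p14. Tables were made with Python 3.11.15 (pandas 2.3.3, numpy 2.4.6) and the figures with matplotlib 3.10.9.

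The comparison and the gene lists were chosen with earlier results of these data known. The naming rule took the 15 largest rises and 15 largest falls with groups that did not overlap, skipping pseudogenes, small RNAs and uncharacterised loci. It also took up to 4 called members per list with the largest change (or, with under 2 called, the 2 of lowest p), a fixed set of folate, cell cycle and differentiation genes, and the 8 largest differences against 8 h and 48 h. The skipped rises were NMRAL2P and LINC01559. The other genes named were chosen after their values were seen. Alternatives were array weights, a block for the replicate number, centring, quantile normalization, a robust prior, the 6 arrays alone, other probe set rules, other thresholds, and leaving out each replicate of the 4 groups.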

Additional observations from a re-analysis of the deposited data

Results flagged for a closer look

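Some genes differed from control in opposite directions at 24 h and at another time, with the difference between the times itself past the test (limma, adjusted p under 0.05). Between 24 and 8 h, 102 genes were higher than control at 24 h and lower at 8 h. KRT23, a keratin of simple epithelium, was at 0.92 at 24 h and -0.61 at 8 h (adjusted p = 9.14e-07 for the difference), and IL20RB, a receptor chain for interleukin-20 family cytokines, at 0.83 and -0.59 (adjusted p = 2.6e-08). A further 58 genes were lower at 24 h and higher at 8 h. The ribosome factor NOP16 was at -0.27 and 0.66 (adjusted p = 1.97e-06), a 24 h call that ended without control replicate 1 or 24 h replicate 1, and NDUFAF4, an assembly factor of respiratory complex I, was at -0.43 and 0.53 (adjusted p = 1.97e-06).

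Between 24 and 48 h, 9 genes were higher than control at 24 h and lower at 48 h, among them AKR1C3, a steroid-converting reductase, at 0.46 and -0.36 (adjusted p = 0.000147). Another 14 genes were lower at 24 h and higher at 48 h. RARRES1, a retinoid-induced gene, was at -0.29 and 0.77, and the complement factor CFB at -0.30 and 0.61 (adjusted p = 4.8e-05 for CFB). The 24 h calls of RARRES1 and CFB ended without control replicate 1 or 24 h replicates 1 or 2, among other settings for CFB. These comparisons share control arrays.

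Probe sets outside the test of genes also changed at 24 h. Of 1752 probe sets naming several genes, 230 were called (13.1%), 133 higher and 97 lower. Of 7807 naming none, 124 were called (1.59%), 50 higher and 74 lower.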

How the results depend on the processing

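Of 312 genes named or eligible for naming, 285 were called at 24 h. In the 20 settings run, 0 of these reversed direction, 219 kept their call in all and 66 lost it in at least 1. Of 45 list medians, 9 changed sign in some setting. Array weights called 3123 genes higher and 2956 lower at 24 h against control, 2797 higher against 8 h, and 2769 higher and 3132 lower at 48 h against 24 h. Quantile normalization called 722 higher and 859 lower against control, 17 at least 2-fold higher, 741 and 713 against 8 h, and 96 and 88 at 48 h against 24 h. At an adjusted p under 0.01, 951 were higher and 819 lower, and with a fold of at least 1.5 there were 182 and 260. Leaving out 1 array gave 1120 to 2027 higher and 935 to 1911 lower genes against control, 31 to 37 and 66 to 82 at least 2-fold, 1333 to 2203 and 1254 to 2091 against 8 h, and 567 to 1201 and 500 to 948 at 48 h against 24 h. The cause of these shifts was not tested. With the replicate number as a block 1720 were higher and 1670 lower. The same-numbered arrays did not deviate together in every pair, with correlations of -0.31, 0.26 and 0.19, so the numbers were not taken as pairs. The level of each gene above background is unknown, which limits what a small ratio can show.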

Other observations

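Beyond the lists, the large changes held genes of several kinds, all chosen after their values were seen. KLK5, a skin protease, read -0.01, 0.00 and 0.13 in the controls and 0.87, 0.96 and 0.85 at 24 h, 1.81-fold higher, the elastase inhibitor PI3 rose 1.72-fold, and KRT15, a basal keratin, 1.67-fold. Groups did not overlap for these 3 genes. The signalling ligand WNT11 rose 2.35-fold. Among the lists, CD68, a lysosomal glycoprotein, rose 1.8-fold, and the calcium-binding proteins S100A3 and S100A2 rose 1.64-fold and 1.6-fold, while ANXA10 fell 1.49-fold.

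Falls outside the lists included SLC38A11, a putative amino acid transporter, which read 0.08, 0.00 and -0.18 in the controls and -1.79, -1.89 and -2.01 at 24 h, 3.64-fold lower. DEPTOR, an inhibitor of mTOR, fell 3.16-fold, the alcohol dehydrogenase ADH1C 3.12-fold and RFX6, a factor of endocrine cells, 2.54-fold. NOX1, the NADPH oxidase of colon epithelium, fell 1.92-fold, HNF4G 1.89-fold and PTGS2, cyclooxygenase-2, 1.9-fold. In each of these 7 genes every treated array was below every control, which for SLC38A11 was set by its choice among the largest falls. ADH1C was at -1.66 at 8 h and -1.72 at 48 h, beside -1.64 at 24 h.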
